A study of Mus musculus with 2 samples.

Results

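Antisense genes are annotated genes whose transcripts run opposite to another gene. A total of 209 of them were detected in nucleoplasmic RNA of stimulated mouse macrophages. A gene was taken as a member when it had a transcript of the biotype antisense and an expected count of at least 50 in both libraries. The expected count is an estimated number of reads or fragments assigned to a gene. The annotation holds 3085 antisense genes once 6 are left out by name, so the members were 6.77% of them and 209 of 55536 annotated genes in all. The members were thus chosen by their expected counts, so their levels are given as a description and were not tested.

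The samples were 2 libraries of 1 group: bone-marrow-derived macrophages of the C57BL/6J strain, primary cells stimulated with 100 ng/ml of Lipid A over 60 min. Toll-like receptor 4 (TLR4) recognises this part of bacterial lipopolysaccharide. The soluble nuclear (nucleoplasmic) RNA was depleted of ribosomal RNA, and replicate 1 started from 1 µg and replicate 2 from 500 ng. Both biological replicates carry the same donor label, age and sex are not recorded, and no unstimulated cells or other fractions were analysed here. The labels name the sample's compartment as nucleus in one field and as nucleoplasm in another.

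Antisense transcripts are made from the strand opposite to a gene, often from its introns, from a shared start region or across its end. Most carry no long reading frame and many are kept in the nucleus, where some are known to act on the locus they come from. Kcnq1ot1 and Airn, for example, are transcribed from imprinted loci and are known to silence neighbouring genes on one parental chromosome. Other genes of this class host small RNAs, such as Zfas1, a known host of small nucleolar RNAs.

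The strand setting of the library and of the counting is not given in the sources used here. Reads from a gene and from its antisense partner therefore cannot be told apart, and every level below may hold reads of the opposite gene. In bulk RNA, fewer cells of a type and less RNA per cell cannot be told apart either.

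The gene tables held 21115765 expected counts on annotated genes in replicate 1 and 15607391 in replicate 2. Of 10 macrophage markers, which include Adgre1, Csf1r and Cd68, all 10 had a TPM (transcripts per a fixed library sum, a level corrected for length) of at least 10 in both libraries, with medians of 209 and 127 TPM. The 4 T cell markers were listed at 0 in both libraries. The markers of B cells, neutrophils, fibroblasts and erythroid cells summed to between 0 and 2.23 TPM.

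The sequences of splice junctions are shown first for 5 of the 6 members of highest mean TPM and for Il1bos and Airn, since the junction of the first intron belongs to the spliced antisense RNA and to the strand it is annotated on. Each line has the last 15 bases of exon 1 in lower case and the first 15 bases of exon 2 in capitals, 5′ to 3′, from GENCODE M21 transcripts on mm10. The deposited tables do not give reads per junction, so use of these junctions was not measured.
Gm26716: tgaactcaggacaggCTGTGCCAACTGCCT
Gm27177: cctgaattttgacagGGTCACTGTTCAGCT
F630028O10Rik: ccacttcaatgacagGTTACCAGTCTTTGG
4933423P22Rik: ccatgaacactgaagGAAGGCAGAAATCAA
Gm28913: cacagcagccacaggGAAAAATACACCTAC
Il1bos: cagattctgggccagGGTCCACATTTCAAA
Airn: tcctggggaactgagCCCACCACCTACCAG
The introns removed at these junctions ranged from 326 bases in 4933423P22Rik to 73071 bases in Airn.

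F630028O10Rik has the microRNA gene Mir223 inside an exon on the same strand. The mature forms, from RefSeq on GRCm38.p6, lie at chrX:96242842-96242864 and chrX:96242884-96242905 on the plus strand, with the seed (bases 2 to 8) in capitals. miR-223 is a microRNA of myeloid cells.
mmu-miR-223-5p: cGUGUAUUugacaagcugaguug
mmu-miR-223-3p: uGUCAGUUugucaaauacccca
The 2 arms have different seeds. The tables used here count the long RNA and say nothing of the mature forms.

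Promoter windows in RefSeq were found for 74 of the 209 members, which have 90 windows between them. Each window runs from 250 bases before the annotated start to 50 bases after it. Windows are shown for 4 members whose 5′ ends overlap the opposite gene, with the transcribed 50 bases in capitals. On GRCm38.p6 they lie at chr2:129369652-129369951 (plus strand, Il1bos), chr11:3648765-3649064 (minus strand, Tug1), chr17:29491495-29491794 (minus strand, Gm26885) and chr17:12741061-12741360 (plus strand, Airn).
Il1bos: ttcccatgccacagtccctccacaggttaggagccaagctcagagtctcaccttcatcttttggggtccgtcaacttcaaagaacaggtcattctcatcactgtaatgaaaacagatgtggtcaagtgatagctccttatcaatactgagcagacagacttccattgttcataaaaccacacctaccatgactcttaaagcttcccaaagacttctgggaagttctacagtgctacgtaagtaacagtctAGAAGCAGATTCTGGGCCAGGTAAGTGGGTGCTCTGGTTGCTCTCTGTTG
Tug1: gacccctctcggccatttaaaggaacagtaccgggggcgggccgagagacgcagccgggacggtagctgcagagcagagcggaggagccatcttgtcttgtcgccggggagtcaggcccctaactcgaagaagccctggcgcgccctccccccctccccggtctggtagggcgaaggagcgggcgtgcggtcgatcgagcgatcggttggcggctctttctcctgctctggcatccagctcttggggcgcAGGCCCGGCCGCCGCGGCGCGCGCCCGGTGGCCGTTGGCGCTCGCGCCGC
Gm26885: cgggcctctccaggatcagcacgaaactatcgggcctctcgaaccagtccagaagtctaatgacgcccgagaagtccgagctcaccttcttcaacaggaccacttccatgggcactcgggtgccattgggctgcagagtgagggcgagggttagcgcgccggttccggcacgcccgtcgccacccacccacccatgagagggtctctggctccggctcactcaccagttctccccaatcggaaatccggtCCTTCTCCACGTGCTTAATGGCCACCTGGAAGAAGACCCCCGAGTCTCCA
Airn: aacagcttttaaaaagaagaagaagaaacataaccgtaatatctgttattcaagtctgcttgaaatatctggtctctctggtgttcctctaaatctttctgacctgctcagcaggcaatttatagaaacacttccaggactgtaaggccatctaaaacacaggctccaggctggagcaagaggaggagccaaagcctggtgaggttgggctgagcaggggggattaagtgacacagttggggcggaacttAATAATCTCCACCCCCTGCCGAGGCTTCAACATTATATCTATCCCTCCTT
The windows differ in CG dinucleotides: 2 in Il1bos, 37 in Tug1, 21 in Gm26885 and 3 in Airn, against a median of 7 over the members' windows and 7 over all 32851 windows of the table. The RefSeq start of Tug1 lies 859 bases from the outermost GENCODE start and that of Gm26885 lies 381 bases from it, whereas Il1bos and Airn differ by 5 and 0 bases.

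Motifs were counted on both strands of all windows of the same length. The TATA motif TATAAA was present in 13.3% of the members' windows and in 13.6% of all windows, and the Airn window holds it. A looser kappa B motif, which contains every match of the stricter kappa B motif, was in 4 of 90 member windows (4.44%) and in 1.47% of all windows. Those windows belong to A630072M18Rik, Gm17227, Gm32036 and Gm9917, of which Gm9917 also has the stricter form. The AP-1 motif TGANTCA was in 4.44% of member windows and 7.81% of all windows. The ISRE motif was in 4.44% and 3.44%, and the PU.1 motif GAGGAAGT in 3.33% and 3.2%. The CRE motif TGACGTCA was in 0 of the 90 windows and in 1.79% of all windows. These matches describe letters in a window and are not sites.

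Many antisense genes had no count at this depth. Of the 3085, 1581 were listed at 0 in both libraries and 1295 had some count but missed the rule. Under the same count rule, 151 of 5854 lincRNA genes (2.58%) and 8334 of 22028 protein-coding genes (37.8%) were detected. The genes closest to the threshold were Sap30bpos with 64 and 49 expected counts in replicates 1 and 2, AC125075.1 with 74 and 49 and Gm17477 with 60 and 48, all just below it. Just above it were D730005E14Rik with 75 and 50, 4930403D09Rik with 61.1 and 50.3 and Gm15551 with 99 and 51.

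The members' expected counts ran from 51 to 6684 in replicate 1, with a median of 192, and from 50 to 4804 in replicate 2, with a median of 135. Together they made up 0.461% of the expected counts on annotated genes in replicate 1 and 0.438% in replicate 2. Counts scaled to a fixed library total, with no correction for length, are called CPM below. The 10 members of highest CPM held 40.6% and 43.1% of the members' counts. Median TPM was 6.53 in replicate 1 and 4.50 in replicate 2. That is close to the detected lincRNA genes, at 6.72 and 4.76, and below the detected protein-coding genes, at 8.87 and 6.68. A level of at least 10 TPM in both libraries was reached by 48 members and a level of at least 1 by 199.

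The members were short genes with few exons. Their median gene length was 5522 bases and their median exonic length 2329, with a median of 2 exons, and 28 of them (13.4%) had a single exon. The detected lincRNA genes were alike, with a median exonic length of 2664 bases, while detected protein-coding genes had 5088 bases and 10 exons. Antisense genes that missed the rule had a median exonic length of 905.5 bases. A longer gene collects more reads at a given level, so a rule on counts favours long genes.

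The highest member by TPM was Gm26716, at chr4:130824394-130826313 on the minus strand, with 56.6 TPM in replicate 1 and 74.3 in replicate 2. It is a spliced gene of 415 exonic bases, and all of these lie inside exons of Sdc3, a heparan sulfate proteoglycan of the cell surface. Only 1 of 5 annotated Sdc3 transcripts overlaps Gm26716. Sdc3 itself had 66.2 and 51.9 TPM, so the order of the pair differed between the libraries. Gm26716 was also one of only 2 members that the second transcript table put more than 2-fold lower in both libraries.

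AC119228.1 had 76.9 and 51.5 TPM and, with 6684 and 4643 expected counts, the most counts of any member in replicate 1. It lies at chr19:29373417-29384471 on the minus strand inside Cd274, which encodes PD-L1, a ligand that restrains T cells. Cd274 had 165 and 142 TPM. Of the 4725 exonic bases of AC119228.1, 10.8% lie in exons of Cd274 and the rest in its introns.

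The level of Gm27177, at chr14:69582164-69683286 on the minus strand, was 71.7 and 55.2 TPM. Its longest overlap is with the 5′ part of Loxl2, a lysyl oxidase of the extracellular matrix, with counts of 0 and 17.1. Among all protein-coding genes it overlaps, Entpd4b was the highest and had 3.38 and 2.34 TPM, so this member stood above every opposite gene it overlaps.

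F630028O10Rik, the gene that holds Mir223, is at chrX:96239926-96243636 on the plus strand and had 56.9 and 65.7 TPM. No protein-coding gene lies opposite to it, and none starts within 1000 bases of it in a divergent direction, so no opposite coding gene is annotated that could share its reads. Its TPM was higher in replicate 2, and so was its ratio after normalisation, at 0.63 on the log2 scale.

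4933423P22Rik had 72.5 and 47.7 TPM and is at chr2:90479236-90488425 on the plus strand. It lies in introns of Ptprj, a receptor tyrosine phosphatase, with no exon in common. Ptprj had 146 and 94.5 TPM. Gm28913, at chr1:131263330-131266749 on the plus strand, had 69.7 and 48.8 TPM inside Ikbke, a kinase of the IKK family that acts in the interferon arm of Toll-like receptor signalling. Ikbke had 390 and 235 TPM.

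**Figure D1:**
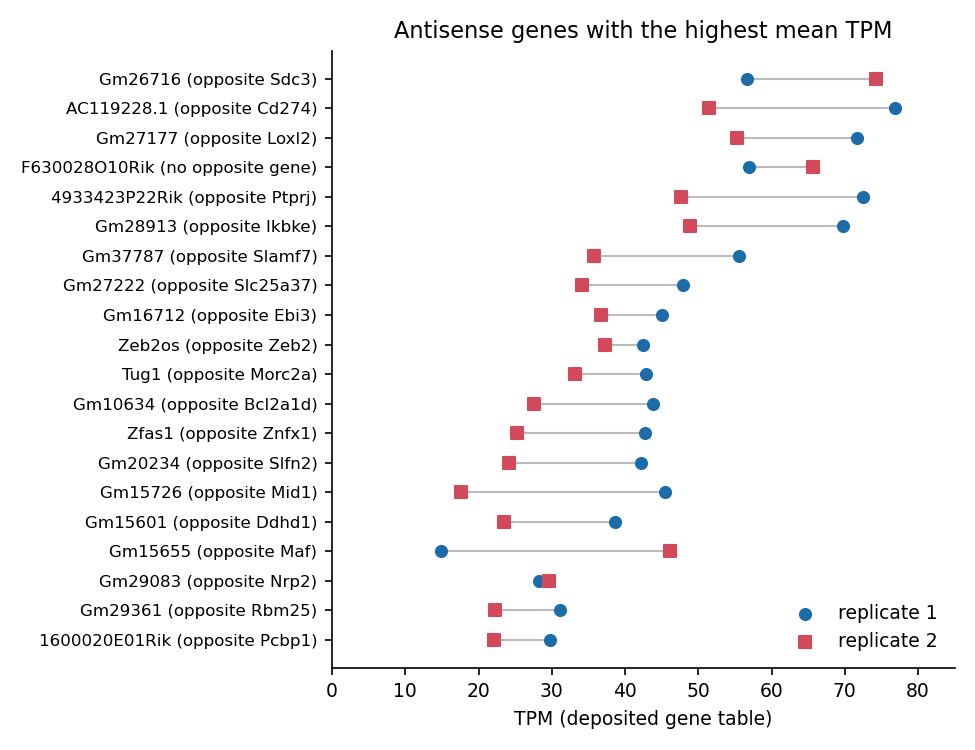
TPM of the 20 members of highest mean TPM, one row a gene with its opposite protein-coding gene in brackets; circles are replicate 1 and squares replicate 2, joined by a grey line. Gm26716, F630028O10Rik, Gm15655 and Gm29083 had the higher TPM in replicate 2 and the other 16 in replicate 1, where median TPM was higher over detected antisense, lincRNA and protein-coding genes alike; by the TMM ratio 7 were higher in replicate 2 and 13 in replicate 1.

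Among the next members by TPM, several lay inside a more highly expressed gene. Gm37787 had 55.6 and 35.8 TPM inside Slamf7, a receptor of the SLAM family, which had 290 and 212 TPM. Gm27222 had 47.9 and 34.1 TPM in introns of Slc25a37, the mitochondrial iron importer mitoferrin, which had 164 and 122 TPM. Zeb2os had 42.4 and 37.3 TPM inside Zeb2, a zinc finger transcription factor, which at 804 and 522 TPM was among the highest opposite genes. All of these members were well below their opposite gene per length in both libraries.

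Gm16712 and Tug1 stood out from that pattern. Gm16712, at chr17:55954771-55959381, had 45.0 and 36.7 TPM, and its 3′ end overlaps that of Ebi3, a subunit of interleukin 27, which had 49.5 and 33.3 TPM. Tug1, a widely expressed long non-coding RNA at chr11:3639785-3649673, had 42.8 and 33.1 TPM, above Morc2a, a chromatin ATPase, at 12.8 and 6.67 TPM. Tug1 was the higher gene of its pair in both libraries and Gm16712 only in replicate 2.

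Gm10634 had 43.8 and 27.6 TPM over a body of 26 exons that contains Bcl2a1d, an anti-apoptotic gene with 239 and 147 TPM. Bcl2a1d has near-identical copies in the mouse, so the values of this pair are uncertain. Zfas1 had 42.8 and 25.2 TPM, or 792 and 497 expected counts, and its 5′ end overlaps that of Znfx1, at 67.7 and 43.5 TPM. Merged over its 5 annotated transcripts, its exons cover the whole gene body of 2929 bases. Small nucleolar RNA genes on the same strand overlap these merged exons, and their reads cannot be told apart from those of Zfas1.

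By CPM, which is not corrected for length, the order was different. Kcnq1ot1, the imprinted RNA, held 6029 and 4804 expected counts over a single exon of 93092 bases, which is only 2.66 and 2.23 TPM. Gm15601, opposite the 3′ end of the phospholipase gene Ddhd1, held 3606 and 2086 counts at 38.7 and 23.5 TPM. Gm26811, opposite the semaphorin receptor gene Plxna1, held 1797 and 1171 counts at 14.0 and 9.57 TPM. A630072M18Rik held 1621 and 1322 counts, but 95.0% of its single exon lies in exons of Rsbn1l. Gm30329 held 1274 and 1045 counts inside 1700011L22Rik, which had 9 and 3 counts.

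Of a list of 31 antisense and neighbouring non-coding genes known by name, 30 of which are in the annotation, 20 entries have the antisense biotype and 3 were members: Kcnq1ot1, Airn and Zfas1. Airn, at chr17:12741311-12860136 on the plus strand, had 225 and 137 expected counts, or 12.2 and 7.15 TPM. It starts in Igf2r, an imprinted receptor gene, which had 41.1 and 25.5 TPM, and shares no exon bases with it. Genes of this list that missed the rule included Ptgs2os with 11 and 9 counts, Dnm3os with 30 and 16 and Hotairm1, a gene of the Hoxa cluster, with 0 and 0. A count of 0 here allows up to 3 counts per library, for counting error alone.

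Position was not used to choose the members. Of the 209, 203 had an opposite-strand protein-coding gene that they overlapped or, in 1 case, diverged from. The member lay inside the opposite gene in 114 cases (54.5%), against 53.2% of the antisense genes that missed the rule. The 5′ ends overlapped in 39 (18.7%, against 21.5%) and the 3′ ends in 40 (19.1%, against 14.1%). The opposite gene lay inside the member in 9 (4.31%, against 3.44%). Gm16094 was the only divergent member without overlap (0.478%, against 2.82%), with Sp110, an interferon-inducible nuclear body gene, as its neighbour. In 6 members (2.87%, against 4.94%) there was neither, among them F630028O10Rik. In percentage points, the widest gap between detected and other antisense genes was in the share with overlapping 3′ ends. None of these gaps was tested.

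Exons of the member and of the opposite gene overlapped in 136 members, and 66 overlapped the opposite body with no exon in common. In 14 members at least 50% of the exonic bases lay in exons of the opposite gene, and in 2, Gm26716 and Gm15655, all of them did. The 203 members had 189 distinct opposite genes, because 8 opposite genes had 2 members and 3 had 3. App, the amyloid precursor gene, had Gm10791, Gm49226 and Gm49227. Arhgap10 and Lrmda had 3 each, and Ikbke, Uvrag and Cdk6 were among those with 2. These members share a host and are not independent. In all, 25 members overlapped more than 1 opposite-strand protein-coding gene, and 3 lay over a protein-coding body on their own strand: Gm15445 over Arl8a, Gm11455 over Stk4 and D730005E14Rik over Apobec3. Of these, D730005E14Rik has exons in common with the coding gene, so its counts are the least certain.

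The genes opposite to members were strongly expressed. The 189 had median levels of 28.3 TPM in replicate 1 and 19.9 in replicate 2, and 127 of them (67.2%) had at least 10 TPM in both libraries. Of the 2357 genes opposite to antisense genes that missed the rule, 353 (14.98%) did, with medians of 0.46 and 0.36 TPM. Over all 22028 protein-coding genes the share was 14.5% and the medians were 0.28 and 0.22 TPM. Because reads of the opposite strand cannot be told apart, part of the members' counts may come from those genes, and their part in this difference was not tested.

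Within the members, higher opposite genes went with higher antisense genes. Over 203 pairs, Spearman's rho between log2 TPM of member and opposite gene was 0.45 in replicate 1 and 0.44 in replicate 2. Where the opposite gene had a mean of at least 50 TPM (60 pairs), the median member had 13.9 and 9.58 TPM. Where it had under 1 TPM (19 pairs), the median member had 3.22 and 2.59 TPM. The pairs share libraries and depth, and some share a host. In pairs with exon overlap rho was 0.48 and 0.45 (136 pairs), and in those without it was 0.40 and 0.42 (67 pairs).

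In most pairs the member was the lower gene. The median log2 ratio of member to opposite gene, in CPM with 0.1 added, was -3.05 in replicate 1 and -3.19 in replicate 2, a mean of -3.12 ± 0.10 (SD, n = 2). The member was higher in both libraries in 35 of 203 pairs (17.2%). Per length, in TPM, the median was -2.20 and the member was higher in 31. Members inside the opposite gene had medians of -3.54 and -3.66, those with overlapping 5′ ends -2.84 and -2.62 and those with overlapping 3′ ends -2.33 and -2.26.

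**Figure D2:**
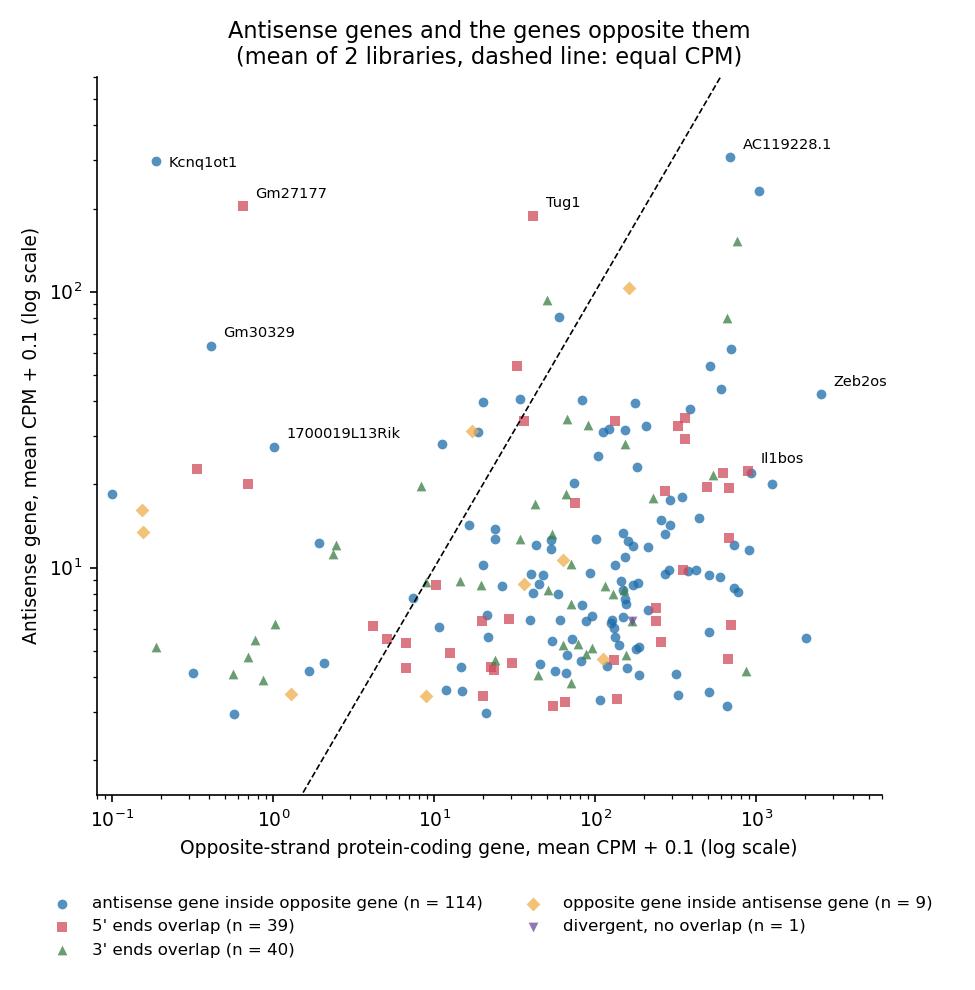
Mean CPM of each of 203 members against the mean CPM of its opposite-strand protein-coding gene, both with 0.1 added and on log axes, with symbols for the arrangement; the dashed line marks equal CPM. Most points lie below the line, and no pair whose opposite gene had a mean of at least 50 TPM has the member higher in both libraries.

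The lowest members relative to the opposite gene were Gm44649 in Iqgap1, a cytoskeletal scaffold, 4930403D09Rik in Dock2, an exchange factor for Rac in blood cells, and E530011L22Rik at the 3′ end of Nktr. Gm44649 had 140 and 66.2 expected counts against 48317 and 27995 of Iqgap1, a log2 ratio of -8.41 and -8.69. Those of 4930403D09Rik were -7.87 and -7.52, and those of E530011L22Rik were -7.84 and -7.51. In such pairs the opposite gene holds nearly all counts of the pair.

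In 16 pairs the opposite gene had under 1 TPM in both libraries, and the member was higher in all 16 in both. A member is by the rule never below 50 counts, which helps to set this order. Kcnq1ot1 had 6029 and 4804 expected counts against 1 and 2 of Kcnq1, a potassium channel gene. Gm17056 had 537 and 311 against 3 and 5.13 of Lsmem1, and B930036N10Rik had 401 and 326 against 17.0 and 6 of Alyref2. For these members the assigned opposite gene had fewer counts than the member itself.

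In 6 of those 16 pairs, another protein-coding gene opposite the member was expressed at 1 TPM or more. Gm47079 contains Icam4, which had 2.23 and 0 counts, but it also overlaps Icam1, an adhesion molecule of inflamed cells, which had 584 and 341 TPM. 1700019L13Rik lies in the annotated body of Cx3cr1, the fractalkine receptor, at 0.16 and 0.22 TPM, but only 1 of 3 annotated Cx3cr1 transcripts reaches it, so this pairing is uncertain. It also overlaps Csrnp1, at 175 and 123 TPM. Etohd2 is opposite Gm49354, which was listed at 0, and opposite Tut7, at 74.1 and 55.1 TPM. With the highest opposite gene in place of the one of longest overlap, 10 pairs were under 1 TPM.

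Where the opposite gene was high, few members exceeded it. Of 140 pairs with at least 10 TPM of the opposite gene in both libraries, the member was higher in CPM in 5: Gm16712, 1600020E01Rik, A530040E14Rik, A630072M18Rik and Gm10425. Per length it was higher in both libraries in 1, 1600020E01Rik, opposite Pcbp1, a gene of an RNA-binding protein. It had 29.7 and 22.2 TPM against 18.8 and 12.3 TPM of Pcbp1. These 5 were named after their values were seen.

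Of the listed genes of the Lipid A response, of TLR4 signalling and of macrophages, Il1b, Cd274, Hif1a, Ikbke and Maf lay opposite to a member. Of all 22028 protein-coding genes, 189 were the assigned opposite gene of a member. Further genes opposite the 25 members that overlap more than 1 are not in this number. In lists of cytokines (26 genes), NF-kappaB feedback (27), immediate early genes (36), interferon response (33) and late inducible genes (18), antisense genes are annotated opposite to 2, 2, 3, 1 and 3 genes. A member was found for 1, 0, 0, 0 and 2 of these. In the TLR4 pathway list (29 genes) 1 of 5 had a member and in the macrophage identity list (40 genes) 1 of 5 did. With counts of 5 or fewer, these lists show only which genes are paired.

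Il1b, the gene of the cytokine interleukin 1 beta, was the cytokine with a member. Il1bos is at chr2:129369897-129375748 on the plus strand and had 490 and 333 expected counts, or 12.7 and 9.47 TPM. Il1b had 784 and 641 TPM. The log2 ratio of Il1bos to Il1b, in CPM, was -5.17 and -5.44, and only 25 exonic bases, 0.839% of those of Il1bos, overlap exons of Il1b. The RefSeq start of Il1bos lies 1237 bases from the outermost GENCODE start of Il1b. Il1b was the higher gene by far in each library.

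In the late inducible list, Cd274 was paired with AC119228.1 and Hif1a, the oxygen-regulated transcription factor subunit, with Gm15283. Gm15283 had 102 and 67.2 expected counts and contains Hif1a, which had 39.5 and 26.9 TPM. Their log2 ratios to the opposite gene were -1.04 and -1.28 for AC119228.1 and -4.52 and -4.66 for Gm15283. In CPM, AC119228.1 was the closest to its opposite gene of the members paired with these lists. Per length, Gm15655 was closer in replicate 2, at 46.1 TPM against 53.1 of Maf, and farther in replicate 1, at 14.8 against 58.5.

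Ikbke had 2 members, Gm28913 and Gm28914. Gm28914 had 165 and 138 expected counts, or 14.6 and 13.2 TPM, and Gm28913 had 273 and 171. Both lie inside Ikbke, and their log2 ratios to it were -6.67 and -6.19 for Gm28914 and -5.95 and -5.88 for Gm28913. The transcription factor gene Maf was the macrophage gene with a member, Gm15655, whose libraries differed most of all members.

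The libraries were compared by the log2 ratio of replicate 2 to replicate 1, after TMM normalisation. With 1 library a side the ratio describes these libraries and no condition. The median over members was -0.03 and over all 10088 genes with a mean count of at least 50 it was 0.00. The median size of the ratio, without its sign, was 0.24 in members, 0.25 in detected lincRNA genes and 0.18 in all genes. At the mean counts of the middle 50% of members (96.0 to 335.5) it was 0.20 in protein-coding genes and 0.24 in members.

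A ratio beyond 2-fold was found in 3 of 209 members (1.44%), against 1.18% over all genes and 0.468% of detected protein-coding genes. Scaled by library totals instead, 6 members (2.87%) and 124 of the 10088 genes were beyond 2-fold. Gm15655 had 84.9 and 241 counts in replicates 1 and 2, a ratio of 1.99, against 0.506% of all genes beyond 2-fold in this direction. All of its exons lie in exons of Maf, which had 8229 and 7094 counts and a ratio of 0.28. Gm15655 thus has no exonic bases outside exons of Maf. Without the strand, only the junction of its 2 exons could tell its reads from those of Maf, and reads per junction are not given. Gm26759 had 277 and 59.6 counts, a ratio of -1.70, and overlaps the 3′ end of Irf2bp2, a corepressor gene with a ratio of -0.54. 1700019L13Rik had 880 and 201 counts, a ratio of -1.63. Of all genes, 0.674% were beyond 2-fold in this direction. No further library of the condition was analysed here to set these ratios against.

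Members just short of 2-fold lay on both sides. On the side of replicate 1 were Gm15726 in Mid1, a ubiquitin ligase gene, at -0.99, and Gm26885 at the start of Pim1, a kinase gene, at -0.98. A130051J06Rik, at the start of Ano6, was also at -0.98, and Ano6 was at -0.04. On the side of replicate 2 was Gm37401, with 70.1 and 95.4 counts and a ratio of 0.93, opposite the 3′ end of Rhoa, a small GTPase gene with a ratio of 0.20. Also on that side were 2510017J16Rik in introns of Rbm48, with 115 and 154 counts and a ratio of 0.91, and Gm15445, with 130 and 169 counts and a ratio of 0.87. Rbm48 itself had a ratio of 0.01. Gm15726 had 336 and 120 expected counts, and Mid1 moved with it at -1.01. Gm26885 had 622 and 223 counts, while Pim1 had a ratio of -0.16. Over 180 pairs with a ratio for both genes, Pearson's r between the ratios was 0.31 and Spearman's rho was 0.21. In the 119 pairs with exon overlap r was 0.37 and in the 61 pairs without it was 0.10. Whether the pairs with and without overlap differ was not tested.

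**Figure D3:**
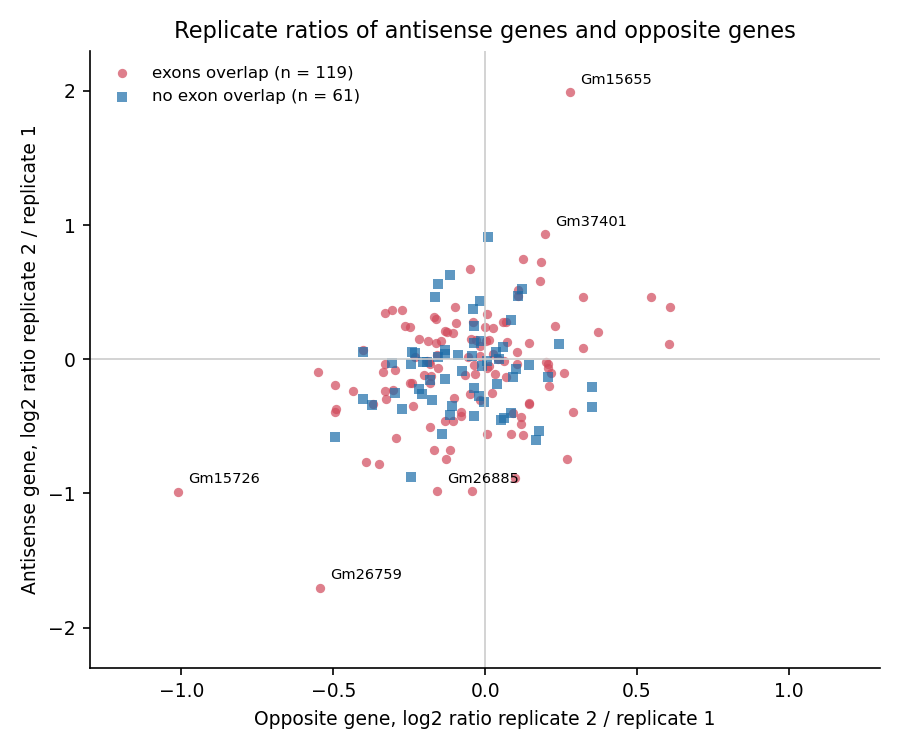
Log2 ratio of replicate 2 to replicate 1 of the member (vertical) against that of its opposite gene (horizontal) for 180 pairs, after TMM normalisation, with circles for pairs whose exons overlap (119) and squares for those without (61). Gm15655 at 1.99 and Gm26759 at -1.70 are the highest and lowest points on the vertical axis.

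The second transcript table, made with another estimate from the same libraries, gave the members more counts. The median log2 ratio of its CPM to that of the gene table was 0.20 in replicate 1 and 0.26 in replicate 2 (mean 0.23 ± 0.04, SD, n = 2). It was -0.08 over detected protein-coding genes and 0.18 over detected lincRNA genes. Members with at least 200 counts in both gene tables (63) had a median of -0.05, so the shift had the opposite sign there. In 36 members with exons of under 1000 bases the median was 0.63 and in the other 173 it was 0.15.

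More than 2-fold higher than in the gene table in both libraries were 29 members (13.9%), with Gm49226, Gm4117 and Gm48754 the farthest. The shares were 17.9% in detected lincRNA genes and 2.81% in detected protein-coding genes. Over 2-fold lower were 2 members (0.957%), Gm26716 and Gm44709, against 1.32% and 0.108% in those classes. Gm49226 lies in introns of App, and Gm48754 in introns of Rala, a small GTPase gene. Both genes that were lower lie almost wholly in exons of the opposite gene. The overlap was 100% for Gm26716 and 96.7% for Gm44709 in Supt5, a transcription elongation factor gene. Other members with such overlap were not over 2-fold lower in both libraries. Gm15655 (100%) was at -1.49 and -0.30, A630072M18Rik (95.0%) at -0.27 and -0.26 and Gm37401 (93.4%) at -1.36 and -0.36. A link to exon overlap was not tested. The third lowest by this ratio was Gm15512, opposite the 3′ end of Arhgap22, at -1.08 and -0.94. The TPM ranks given here, that of Gm26716 included, are those of the gene table and were not worked out in the second table. Other members of high TPM moved upward by this ratio, Gm28913 at 1.63 and 2.20 and Gm27222 at 2.40 and 2.32. AC119228.1 was at -0.20 and -0.14. By the same count rule the second table would give 715 antisense genes, which include 205 of the 209.

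Genes that lie wholly in introns of a protein-coding gene allow levels on the strand of the host and on the opposite strand to be set side by side. This comparison was chosen after values were seen. It took non-coding genes of any count with no exon overlap with the host, and gave each a density, its CPM per kilobase of exon. With hosts of at least 10 TPM in both libraries, 168 genes on the opposite strand, 139 of them of the antisense type and 39 of them members, had a median density of 1.60 in replicate 1 and 1.15 in replicate 2. The 90 genes on the same strand as the host, 76 of them sense intronic, had 1.22 and 1.13. The log2 ratio of the medians, opposite to same strand, was 0.20 ± 0.25 (SD, n = 2), but this depended on the setting. In the second transcript table it was 0.31 ± 0.07. Among single-exon genes it was 0.53 ± 0.30 and among genes of more than 1 exon 0.67 ± 0.40. With hosts of at least 50 TPM it was 0.29 ± 0.49, and for antisense and sense intronic types alone 0.01 ± 0.25. In both of these last settings the same strand had the higher median density in replicate 2. The SDs are over the 2 libraries and do not measure the spread between genes. The strands differ in exon number, with 11 of 168 genes on the opposite strand and 44 of 90 on the same strand having a single exon.

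Both strands followed the host. With hosts under 1 TPM in both libraries, 428 of 519 genes on the opposite strand (82.5%) and 101 of 132 on the same strand (76.5%) were listed at 0 in both. With hosts of at least 10 TPM these shares were 11.3% and 14.4%. Spearman's rho between density and host TPM was 0.70 and 0.66 in replicates 1 and 2 for 941 genes on the opposite strand, and 0.65 and 0.59 for 374 on the same strand. Genes of 1 host share its level, and all share libraries. At least 50 counts in both libraries were found for 29.8% of the genes on the opposite strand of hosts of at least 10 TPM and for 40.0% on the same strand. The genes on the same strand were longer, with a median exonic length of 1031 bases against 735.5, and a longer gene passes a count threshold more easily. Among genes of more than 1 exon the order was the reverse, with 29.3% on the opposite and 26.1% on the same strand.

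**Figure D4:**
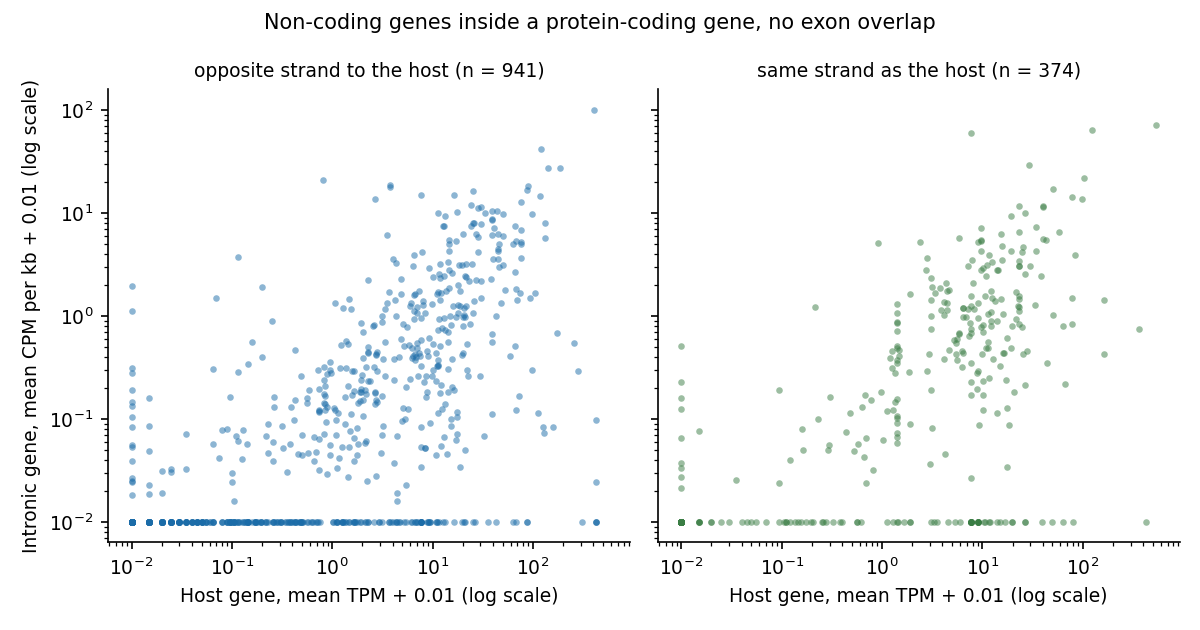
Mean CPM per kilobase of exon of non-coding genes inside a protein-coding gene with no exon in common, against the mean TPM of that host, with 0.01 added on log axes; left, 941 genes opposite to the host's strand, right, 374 genes on it. In both panels the points climb with the host, and the bottom row holds genes listed at 0.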

How the data were processed

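Ribosomal-RNA-depleted RNA of 2 nucleoplasmic libraries of 1 condition was measured. Each came with a gene table and a transcript table of expected counts and TPM, and a second transcript table of estimated counts and TPM. The expected counts were deposited by the authors as estimated counts that were not normalised, and the TPM values were scaled by the authors after division by effective length. The second transcript table's estimated counts were also deposited by the authors, and transcripts were added up to genes. Tables were made on mm10 with GENCODE M21, per the file headers. For aligner, quantifier, versions and strand: not given in the sources used here. Gene types and coordinates (1-based) came from GENCODE M21.

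CPM is the expected count scaled to the same sum over annotated genes in each library. The opposite gene is the opposite-strand protein-coding gene of longest body overlap, or, failing that, one that starts within 1000 bases and diverges. For replicate ratios, expected counts were rounded, 0.5 was added and TMM of edgeR 4.0.16 (R 4.3.3) was used on genes with a mean count of at least 50, with DESeq2 1.42.0 size factors as an alternative. It was tested on simulated data for replicate 2 against 1 over 10088 genes, 200 of them changed. It put 100% of changes of 2 and 90% of changes of 1.5 on the log2 scale beyond 2-fold, a cut both exceed. Of unchanged genes it put 0.334% there. The simulated spread between libraries was a fixed setting, not estimated from these data, so 0.334% is not an error rate for the real libraries. Other steps used Python 3.11.15, pandas 2.3.3 and scipy 1.17.1. No molecular identifiers are named in the sources used here, and the floor of 3 counts covers counting error only.

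A single group of 2 libraries allows no test between groups, so there are no p-values. Genes were named by rule: the 12 highest by TPM, the 5 next by CPM, the 4 largest and 4 smallest replicate ratios, members opposite to a listed response, TLR4 or macrophage gene, the 5 highest and 3 lowest ratios to the opposite gene, the 3 largest and 3 smallest ratios between tables, the 3 genes on each side of the threshold and members of a list of known antisense genes. Gm16094, Gm11455, A130051J06Rik, the shared hosts, the genes with kappa B motifs, the 5 members above a high opposite gene and the pairs of Gm17056 and B930036N10Rik were added after their values were seen. Members and lists were chosen with earlier results of these data known. The sequence of 1 further junction is not reported here.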

Additional observations from a re-analysis of the deposited data

How the results depend on the processing

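No paired analysis was possible because the labels give 1 group alone. The count of 209 members became 371 with at least 20 and 128 with at least 100 expected counts, and 715 in the second transcript table. From a single library it ranged from 213 to 287. The share of counts, 0.449% on average, was 0.538% in the second table and 0.21% of TPM, and ranged from 0.438% to 0.461% over the libraries. Members beyond 2-fold between libraries numbered 6 with library totals, 5 in the second table and 1 at a mean count of at least 200. The log2 ratio to the opposite gene was -2.20 in TPM, -2.80 in the second table, -3.30 against the highest opposite gene and -2.98 without exon overlap, and ranged from -3.19 to -3.05 over single libraries. Pairs with the member higher were 9 of 67 without exon overlap, and 36 to 37 from 1 library. The ratio between tables, 0.23, was -0.046 at 200 counts or more and 0.20 to 0.26 over the libraries. The strand comparison of intronic genes, whose alternatives were chosen after seeing the data, gave 0.53 for single-exon genes and 0.67 for genes of more than 1 exon. For antisense and sense intronic types alone it gave 0.01, so almost no difference was left there. The causes were not tested. The other alternatives tried kept their direction and moved by less than the spread, or by less than 1.5 times for counts and shares. Depth limits what a low count shows: under 3 counts, absence cannot be told from too few reads.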
